A study of Arabidopsis thaliana with 12 samples.

Results

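The comparison set siliques of AtHb1 plants against siliques of WT plants after both had spent 1 h under hypoxia, to ask how seeds with extra hemoglobin differ from WT seeds while oxygen is short. It uses 6 of the 12 ATH1 arrays of the study, 3 of AtHb1 hypoxia and 3 of WT hypoxia, and 22746 of 22810 probe sets, since the 64 control probe sets were set apart. WT was Col-0, and AtHb1 was the transgenic line L1-1 in the same background, in which the LeB4 promoter, active mainly in seeds, drives the coding region of *Arabidopsis* hemoglobin 1. Intact plants 45 days old, with seeds in the middle of maturation, stood in darkness at 10.5 kPa oxygen under hypoxia and at 21 kPa in the control groups, which are given beside the hypoxia values. Each array is 1 pool of whole siliques, so seeds and silique wall were measured together, and 1 transgenic line stands for the transgene.

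Class 1 hemoglobins of plants bind oxygen very tightly and convert nitric oxide to nitrate, and their genes are induced when oxygen is low. Nitric oxide itself arises in part from nitrite through nitrate reductase, and it acts on respiration and on hypoxia signalling. In the maturing seed, a programme of storage protein, oil body and late embryogenesis abundant (LEA) genes runs in dense tissue where oxygen is scarce.

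The arrays of WT hypoxia lay close together, with a median SD of 0.0759 per probe set and correlations of 0.9977 to 0.9983, while those of AtHb1 hypoxia varied more, with a median SD of 0.1139 and correlations of 0.9932 to 0.9954. The 2 genotypes also differed in control probe sets. The 3' minus 5' signal of actin, a measure of RNA integrity, lay at 2.72 to 3.00 in WT hypoxia and at 3.83 to 3.91 in AtHb1 hypoxia, and that of GAPDH at 1.08 to 1.23 and 1.77 to 2.00. The bioC hybridization control read 7.19 to 7.32 in WT hypoxia and 9.35 to 9.60 in AtHb1 hypoxia. The genotypes were also parted at control, where actin lay at 2.74 to 2.85 in WT and at 3.17 to 3.38 in AtHb1. There GAPDH lay at 0.80 to 1.26 and 1.64 to 1.93, and bioC at 6.80 to 7.07 and 7.75 to 9.19. These controls parted the same arrays as the genotype did, at both oxygen levels. Their part in the results, the interaction among them, was not tested. Of 9 pollen markers 6 were named on the array, with a mean log2 signal of 6.47 to 6.58 in WT hypoxia and 6.24 to 6.88 in AtHb1 hypoxia and 0 called. At control their mean was 7.89 to 8.00 in WT and 6.35 to 6.98 in AtHb1, 5 of the 6 were called lower in AtHb1 and all 6 passed the interaction, and their part in the results was not tested. The silique wall marker *ALC* differed by 0.12 (log2), not past the test, the endosperm marker *AGL62* read only 4.16 to 4.55 on the 12 arrays, below the limit of 6 used here for dim probe sets, and the seed coat marker *BAN* was called lower, as given with the flavonoid genes. None of the 11 markers of embryo and seed storage was named here.

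*AtHb1* (AT2G16060) was read first as a check of the labels. Its probe set gave log2 signals of 9.06, 9.07 and 9.14 in WT hypoxia and of 10.65, 10.38 and 11.12 in AtHb1 hypoxia. The groups did not overlap, and AtHb1 plants were higher by 1.62 (standard error 0.30, adjusted p = 0.000707, limma), or 3.08-fold. The probe set cannot part the transgene from the endogenous gene. At control the same difference was 5.49, so the genotypes differed less in *AtHb1* transcript under hypoxia, by -3.87 on the log2 scale (adjusted p = 0.000143 for the interaction). *HB2* (AT3G10520), the class 2 hemoglobin gene, was lower in AtHb1, with a log2 difference of -1.67 (standard error 0.10) under hypoxia and the same to that digit at control.

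Of the 22746 probe sets, 180 (0.791%) were called higher and 216 (0.95%) lower in AtHb1 hypoxia, where a call needs an adjusted p under 0.05 in limma and a difference above 2-fold. With each array centred on its own median the counts were 131 higher and 253 lower, and that scaling moved the median of all differences from -0.00 to -0.08. Dropping the fold limit left 5075 (22.3%) higher and 4159 (18.3%) lower, and these shares are the background of every count with no fold limit below. For counts of genes called under hypoxia and named by the annotation, the background is 0.791% higher and 0.95% lower. The 3 and 3 arrays did not overlap for 11570 probe sets (50.9%), among them all 396 that were called (1.74%). With 3 arrays a side, the smallest p that an exact two-sided permutation test allows for a single gene is 0.1, and the calls depend on the moderated variance of limma. Of the 396, the array annotation names 209, the study's own tables of called genes name 174, 11 match several genes and 2 carry no name here. Genes named only by the study's tables are there because they were called on these arrays, so counts of them are not independent evidence and are given apart.

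Changes above 4-fold lay almost all on 1 side: 24 probe sets were lower by more than 4-fold and 1 was higher. At control, where no array is shared with the hypoxia comparison, 38 of the 180 higher and 77 of the 216 lower probe sets were called in the same direction, against backgrounds of 1.2% and 0.972% of all probe sets. None of the 180 and 18 of the 216 were called in the opposite direction. Both comparisons share the variance estimate of the model, and actin, GAPDH and bioC parted the genotypes in both. Among those lower under hypoxia the median difference was -1.28, and -0.55 at control. Among those higher it was 1.13 and 0.64. The interaction of genotype and oxygen passed for 221 of the called probe sets and for 2793 (12.3%) of all. This share is not set against the background, because the called probe sets were chosen on the hypoxia arrays that enter the interaction. Among the 125 lower ones that passed it, 69 had the opposite sign at control, 46 a smaller difference in the same direction and 10 a larger one. Among the 96 higher ones, 84 had a smaller difference at control, 9 the opposite sign and 3 a larger one.

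**Figure D1:**
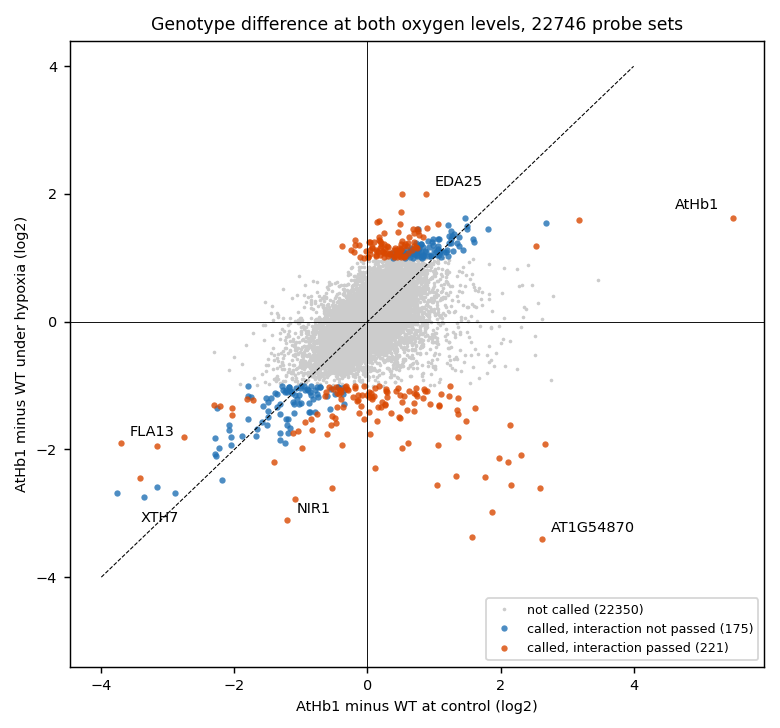
Each point is 1 of 22746 probe sets, with the log2 difference of AtHb1 minus WT at control on the x axis and under hypoxia on the y axis, in orange where called with the interaction passed (221), in blue where called without it and in grey where not called. Points off the dashed line of equal differences include the group of lower genes at the bottom right, led by AT1G54870 at 2.62 at control and -3.40 under hypoxia, while *XTH7* lies near the line at -3.36 and -2.75.

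Among the 15 lowest genes, several had a negative difference under hypoxia and a positive one at control, and some of these are known from the maturing seed. AT1G54870, a short-chain dehydrogenase/reductase gene with the lowest difference of all, read 9.47, 9.61 and 9.80 in WT hypoxia and 5.48, 5.09 and 8.12 in AtHb1 hypoxia. The log2 difference was -3.40 (standard error 0.99, adjusted p = 0.0138, limma), or 10.6-fold lower in AtHb1. With a trended robust prior the adjusted p was 0.0697, which ended the call. The WT arrays were tight, whereas replicate 3 of AtHb1 hypoxia stood well above the other 2 arrays of its group without reaching WT. As siliques are mixed tissue, fewer cells that express a gene and less RNA of it per cell cannot be told apart.

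AT1G14940, of the major latex protein family, read 10.36, 10.36 and 10.45 in WT hypoxia and 6.65, 6.10 and 8.30 in AtHb1 hypoxia. *BGLU19* (AT3G21370), a beta-glucosidase gene, read 9.56, 9.48 and 9.53 against 6.37, 5.15 and 8.11. Again the groups did not overlap, and replicate 3 of AtHb1 was the highest of its group. AT1G14940 differed by -3.37 (standard error 0.78), which passed limma with an adjusted p = 0.00348, and *BGLU19* differed by -2.98 with the same standard error and an adjusted p = 0.00724. AT1G14930, of the same family as AT1G14940 and chosen after its value was seen, had -2.43 (standard error 0.67).

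At control the differences of these genes had the opposite sign and were not called. AT1G54870 read 7.66, 7.62 and 5.34 in WT control and 6.65, 10.98 and 10.83 in AtHb1 control, *BGLU19* 8.32, 8.50 and 6.44 against 7.77, 11.11 and 10.003. Replicate 3 of WT control and replicate 1 of AtHb1 control were each far below the others of their group, so the control groups overlapped in these genes. The control differences were 2.62 for AT1G54870, 1.56 for AT1G14940 and 1.87 for *BGLU19* (adjusted p = 0.0566, 0.145 and 0.0799), and the interaction passed for each of them (adjusted p = 0.0127, 0.0102 and 0.0109). Hypoxia minus control was 2.76, 1.93 and 1.77 for the 3 genes in WT and -3.26, -3.00 and -3.08 in AtHb1. These responses share arrays with the genotype differences and are given only beside them.

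**Figure D2:**
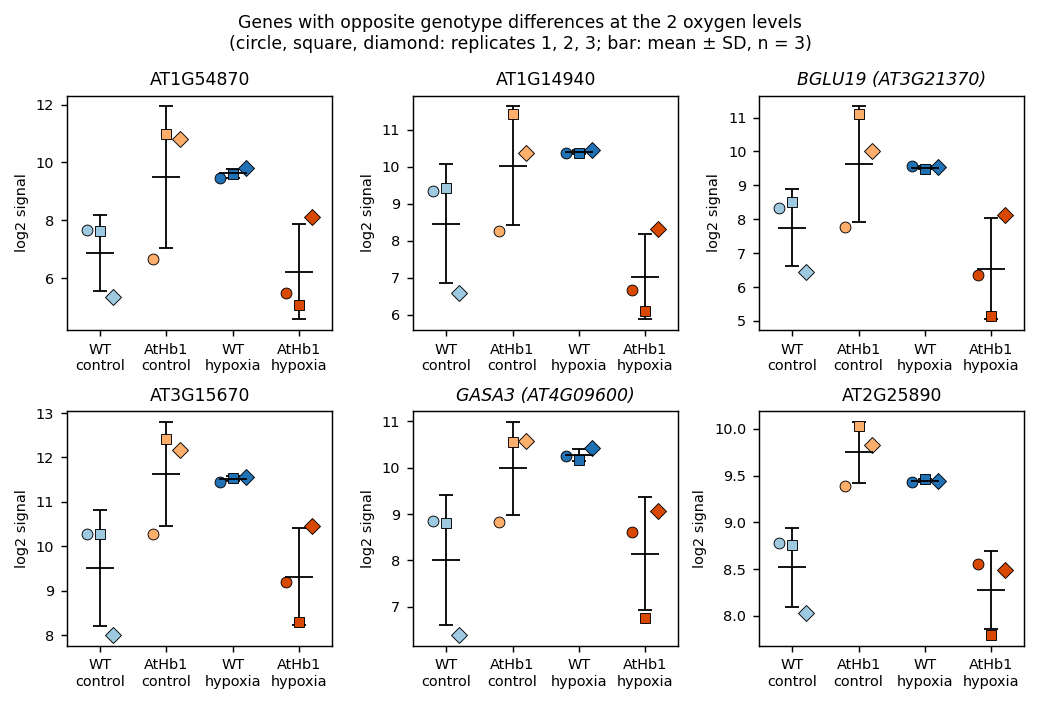
Log2 signal of AT1G54870, AT1G14940, *BGLU19*, AT3G15670, *GASA3* and AT2G25890 on each of the 12 arrays, with circle, square and diamond for replicates 1, 2 and 3 and bars for the mean ± SD (n = 3) of each group. In each panel the WT hypoxia arrays sit together above the AtHb1 hypoxia arrays, and the AtHb1 hypoxia arrays spread over a wide range, from 5.09 to 8.12 for AT1G54870.

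LEA proteins protect drying cells of the embryo. AT3G15670, a LEA family gene, read 11.46, 11.54 and 11.57 in WT hypoxia and 9.20, 8.29 and 10.46 in AtHb1 hypoxia, a difference of -2.20 (standard error 0.64, adjusted p = 0.0128). *EM1* (AT3G51810), which encodes a LEA protein of the dry seed, read 8.24, 8.25 and 8.67 against 5.75, 5.33 and 7.83, a difference of -2.09 (standard error 0.73, adjusted p = 0.0336). Of 31 named genes in a list of late seed maturation, 10 were lower, 0 higher, and 24 passed the interaction. It passed for 11 of the 17 named by the annotation, beside 12.3% of all probe sets. The 17 that the annotation names held 3 of the lower ones, beside 0.95% of all probe sets. These 3 were AT3G15670, the manganese superoxide dismutase gene AT3G56350 and the LEA gene AT2G21490. The median of the 17 was -0.26 under hypoxia and 1.67 at control, against -0.00 under hypoxia over all probe sets.

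Several members of this list that were called are not LEA genes: *NSP2* (AT2G33070) encodes a nitrile-specifier protein of glucosinolate breakdown, *GASA2* and *GASA3* small gibberellin-regulated peptides, *GolS2* (AT1G56600) a galactinol synthase and *DOG1* (AT5G45830) a regulator of seed dormancy. *NSP2* read 9.25, 9.32 and 9.39 in WT hypoxia and 6.02, 5.89 and 8.40 in AtHb1 hypoxia, with a difference of -2.55 (standard error 0.75, adjusted p = 0.014). *GASA3* differed by -2.13 and *GASA2* by -1.91, while *GolS2* differed by -1.26 (standard error 0.17) and *DOG1* by -1.09. Others did not pass the test, such as the LEA genes *LEA7* at -0.07 and *GEA6* at -0.07 and the dehydrin gene *RAB18* at -0.23. *LEA18* was higher with no fold limit, at 0.52 (adjusted p = 0.0233). At control 24 of the 31 were called higher in AtHb1, and 13 of the 17 named by the annotation, beside 1.2% of all probe sets.

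How many of these genes were called depended on a single array. Without replicate 2 of AtHb1 hypoxia, the lowest array for most of them, 2 of the 31 kept the call, AT3G56350 at -1.09 and *GolS2* at -1.17. The mean over the 31 genes was 8.62, 8.64 and 8.75 in WT hypoxia and 8.10, 7.71 and 8.45 in AtHb1 hypoxia. Of the 31, 14 were named by the study's tables alone, so this mean is not independent evidence. Over the 17 named by the annotation it was 8.25, 8.28 and 8.37 against 8.01, 7.56 and 8.20. In both means each AtHb1 array was below each WT array, though 50.9% of all probe sets taken singly had no overlap. Calls of *XTH25*, *EM1* and *GASA2* were lost without any 1 of the 3 WT hypoxia arrays or of replicates 1 and 2 of AtHb1 hypoxia, at values as weak as -1.92, -1.60 and -1.41, and that of *GASA2* also without replicate 1 or 2 of WT control. AT1G54870 had -2.83, *NSP2* -2.11, AT3G15670 -1.69 and *GASA3* -1.44 without replicate 2 of AtHb1 hypoxia, none of them past the test. The trended robust prior ended the calls of *NSP2*, AT3G15670, *GASA3*, *EM1*, *GASA2* and *XTH25*, with adjusted p-values from 0.0659 to 0.144.

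In a list of 9 named lipid transfer protein genes, 4 were called lower under hypoxia (3 of the 6 named by the annotation), and at control 0 were called higher and 3 lower. AT2G18370 read 9.64, 9.73 and 9.62 in WT hypoxia and 7.54, 5.44 and 8.31 in AtHb1 hypoxia, and AT3G58550 read 9.56, 9.56 and 9.35 against 7.21, 5.30 and 8.72. The first differed by -2.56 (standard error 0.51, adjusted p = 0.00126) and by 1.05 at control, the second by -2.41 (standard error 0.61) and by 1.33, with an adjusted p = 0.0058 under hypoxia. Neither of these control differences was called. AT2G45180 was lower at both oxygen levels, at -1.81 and -2.75, and *LTP5* (AT3G51600) had -1.0008, at the 2-fold limit, and -0.84 at control. The call of *LTP5* was lost without replicate 2 of WT hypoxia or replicates 2 or 3 of AtHb1 hypoxia, with -0.93 at the weakest.

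Some oil body and vacuole genes of the seed were also called lower, by less and with less spread. The oleosin family gene AT2G25890 read 9.43, 9.46 and 9.44 in WT hypoxia and 8.55, 7.80 and 8.49 in AtHb1 hypoxia, a difference of -1.16 (standard error 0.22, adjusted p = 0.000733), and it was -0.92 without replicate 2 of AtHb1 hypoxia, under the fold limit. *ATPXG2* (AT5G55240), a caleosin gene of oil bodies, differed by -1.25, and the seed aquaporins of the storage vacuole *BETA-TIP* (AT1G17810) by -1.40 and *TIP3;1* (AT1G73190) by -1.27. Of 12 named genes of seed storage and oil bodies, 4 were lower with a median of -0.69 (0.71 at control), and the 8 named by the annotation held 1 of them. With no fold limit 6 of these 8 were lower and 1 was higher. Among the lower ones the vicilin-like gene *PAP85* had -0.62 and AT3G01570, another oleosin family gene, -0.48. Of 4 regulators of seed maturation, *LEC2* (AT1G28300), a master regulator of embryo development, read 6.39, 6.45 and 6.51 in WT hypoxia and 7.36, 7.81 and 7.72 in AtHb1 hypoxia, a difference of 1.18 (standard error 0.10, adjusted p = 2.32e-06). The bZIP factor gene *DPBF2* (AT3G44460) had -0.69, below the fold limit.

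Nitrate assimilation showed the second large group, with tight replicates. *NIR1* (AT2G15620), which encodes nitrite reductase, read 10.61, 10.71 and 10.70 in WT hypoxia and 7.67, 7.51 and 7.52 in AtHb1 hypoxia. *NIA2* (AT1G37130), the main nitrate reductase gene, read 11.42, 11.47 and 11.59 against 8.85, 8.75 and 8.54. In both genes the groups lay more than 2 log2 units apart with no overlap. AtHb1 was 8.62-fold lower in *NIR1*, with a log2 difference of -3.11 (standard error 0.10, adjusted p = 5.56e-10), the smallest adjusted p of the genes named here, and 6.86-fold lower in *NIA2*, at -2.78 (standard error 0.21, adjusted p = 1.05e-06).

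At control *NIR1* read 8.34, 8.50 and 8.79 in WT and 7.44, 7.21 and 7.37 in AtHb1, so the genotype difference was smaller there, at -1.20, and at -1.09 for *NIA2*. The interaction was -1.90 for *NIR1* (adjusted p = 1.09e-05) and -1.69 for *NIA2* (adjusted p = 0.00255). Hypoxia minus control was 2.13 for *NIR1* in WT beside 0.23 in AtHb1, and 1.45 for *NIA2* in WT beside -0.24 in AtHb1. *UPM1* (AT5G40850), needed for the siroheme cofactor of nitrite reductase, differed by -1.59 (standard error 0.09) under hypoxia and -0.48 at control. *LBD37* (AT5G67420), a nitrate-induced repressor gene, differed by -1.52 (standard error 0.20) and -0.05. These 4 of the 8 named genes of nitrate assimilation and response were lower and 0 higher. All 4 were named by the study's tables, and their calls held without any 1 of the 12 arrays.

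The other 4 members moved less. AT1G68670 and AT1G25550, which encode GARP-type factors of nutrient response and are the 2 members named by the annotation, had -0.99 and -0.42. AT1G68670 lay just under the fold limit and had 0.94 at control. *GLT1* (AT5G53460), the NADH-dependent glutamate synthase gene, had -0.27 and the glutamine synthetase gene *GLN1;4* (AT5G16570) was higher by 0.46 with no fold limit. The 2 genes named by the annotation had a median of -0.71, against -0.00 over all probe sets, and neither was called. Each of the 8 genes passed the interaction.

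**Figure D3:**
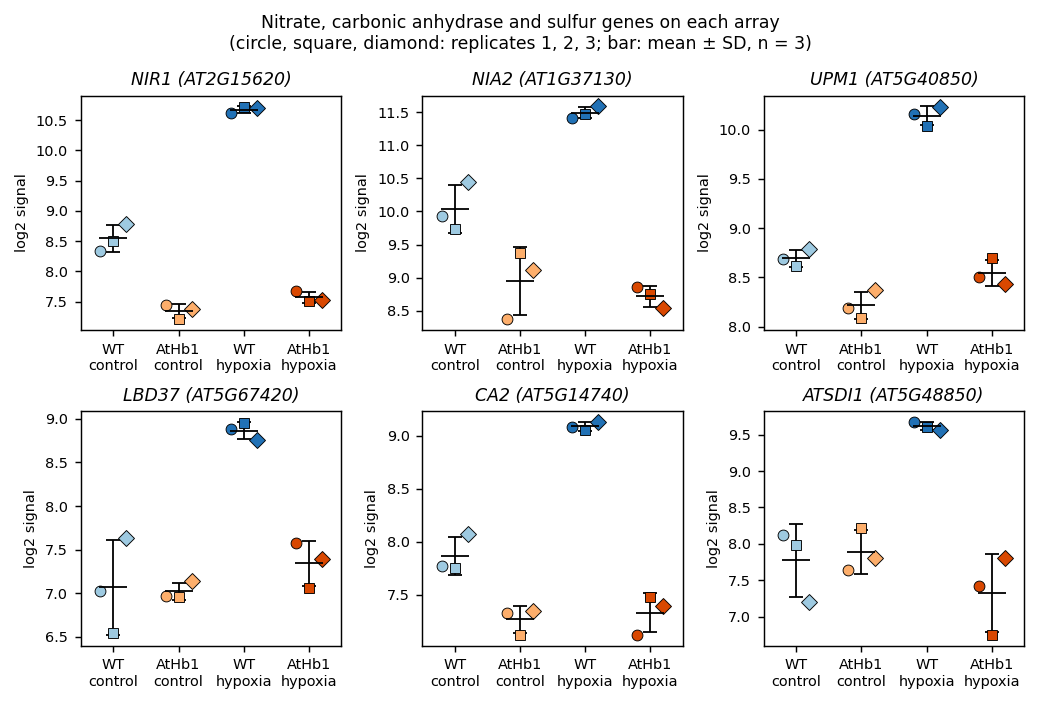
Log2 signal of nitrate genes (*NIR1*, *NIA2*, *UPM1*, *LBD37*), the carbonic anhydrase gene *CA2* and the sulfur gene *ATSDI1* on each of the 12 arrays, with circle, square and diamond for replicates 1, 2 and 3 and bars for the mean ± SD (n = 3). WT hypoxia stands above the other 3 groups in each panel, and the 3 WT hypoxia arrays of *NIR1* lie between 10.61 and 10.71.

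Carbonic anhydrases interconvert carbon dioxide and bicarbonate. *CA1* (AT3G01500), which encodes the chloroplast form, read 11.59, 11.68 and 11.54 in WT hypoxia and 9.46, 9.48 and 9.29 in AtHb1 hypoxia. All 3 named genes of this family were called lower. *CA1* had a difference of -2.20 (standard error 0.15, adjusted p = 5.76e-07), *CA2* (AT5G14740) of -1.76 (standard error 0.11) and *BCA3* (AT1G23730) of -1.32 (standard error 0.10). At control they had -1.40, -0.60 and -0.10. Each passed the interaction, though for *CA1* it was lost without any 1 of 7 of the 12 arrays. The 3 genes carry names from the study's tables alone.

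Sulfur genes, of which all but *APK4* were chosen after their values were seen, held large differences of both signs. *ATSDI1* (AT5G48850), a gene induced by sulfur deficiency, read 9.67, 9.60 and 9.57 in WT hypoxia and 7.42, 6.75 and 7.81 in AtHb1 hypoxia, and *LSU1* (AT3G49580), another low-sulfur gene, read 9.91, 9.86 and 10.08 against 8.21, 7.16 and 8.53. *ATSDI1* differed by -2.29 (standard error 0.25, adjusted p = 1.32e-05) and by 0.12 at control. *LSU1* had -1.98 (standard error 0.26) and 0.53, with an adjusted p = 5.47e-05 under hypoxia. *APR2* (AT1G62180), the gene of the main sulfate-reducing enzyme, had -1.05 and the beta-glucosidase gene *BGLU28* (AT2G44460) -1.08. *APK4* (AT5G67520), an adenylylsulfate kinase gene, was higher, at 7.67, 7.92 and 8.07 in WT hypoxia and 9.11, 8.87 and 9.04 in AtHb1 hypoxia, a difference of 1.12 (standard error 0.13) against -0.25 at control.

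*ECS1* (AT1G31580), which encodes a cell wall protein linked to bacterial resistance, was lower by a similar amount. It read 11.79, 11.55 and 11.74 in WT hypoxia and 8.98, 9.31 and 8.99 in AtHb1 hypoxia, a difference of -2.60 (standard error 0.18, adjusted p = 5.76e-07) against -0.53 at control (interaction adjusted p = 0.000297). *WRKY18* (AT4G31800), a defence regulator, differed by -1.14 and by -0.08 at control. Its hypoxia minus control was 2.29 in WT and 1.23 in AtHb1. *RVE2* (AT5G37260), a MYB-like factor gene of the circadian clock, differed by -1.16 and by 0.09 at control, and the calmodulin-like gene AT2G41090 by -1.75 and -1.11. Of 12 named WRKY and salicylate defence genes 1 was lower and 1, *PAD3* (AT3G26830) of camalexin synthesis, higher by 1.54, and their median was -0.02. Of 12 calcium signalling genes AT2G41090 alone was called, and 6 were lower and 1 higher when the fold limit was dropped. Of the 8 named by the annotation 3 were then lower and 1 higher, beside 18.3% and 22.3% of all probe sets. The median of the 8 was -0.002. The mean of the 12 was 7.63, 7.54 and 7.61 in WT hypoxia and 7.23, 7.36 and 7.28 in AtHb1 hypoxia, with no overlap. AT2G41090, at -1.75, weighs on this mean, and 4 of the 12 were named by the study's tables alone. It is therefore not independent evidence on the family. Taken singly, 50.9% of all probe sets had no overlap.

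Several genes of the growing cell wall and the cuticle were called lower in AtHb1 at both oxygen levels, among them *XTH7*, *XTH6*, *EXPA10*, *FLA13* and *CYP96A15*. *XTH7* (AT4G37800), which encodes an enzyme that cuts and rejoins xyloglucan, read 9.82, 10.0005 and 9.90 in WT hypoxia and 6.81, 7.43 and 7.24 in AtHb1 hypoxia, a difference of -2.75 (standard error 0.17, adjusted p = 2.16e-07) and of -3.36 at control. *XTH6* (AT5G65730) read 8.75, 8.73 and 8.92 against 6.18, 6.04 and 6.13, with -2.68 and -3.76. The interaction did not pass for either gene (adjusted p = 0.121 and 0.0509). *XTH4* (AT2G06850) had -1.79 and *XTH24* (AT4G30270) -1.22, whereas *XTH25* (AT5G57550) had 2.60 at control beside -2.60 under hypoxia, at 10.03, 10.16 and 10.25 in WT hypoxia and 7.25, 6.203 and 9.20 in AtHb1 hypoxia. In this family 5 of the 8 genes named by the study's tables and 0 of the 8 named by the annotation were called lower, and over all 16 the median was -0.29. With no fold limit 2 of the 8 named by the annotation were lower, beside 18.3% of all probe sets, and the median of these 8 was -0.01.

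Expansins loosen the wall. *EXPA10* (AT1G26770) read 11.25, 11.27 and 11.20 in WT hypoxia and 9.25, 9.08 and 9.09 in AtHb1 hypoxia, a difference of -2.10 (standard error 0.16, adjusted p = 1.17e-06), and -2.27 at control. *EXPA8* (AT2G40610) and *EXPA1* (AT1G69530) had -1.34 and -1.29, with -1.36 and -1.03 at control. *EXPA15* (AT2G03090) differed more under hypoxia, at 10.54, 10.55 and 10.56 in WT and 9.07, 8.18 and 8.61 in AtHb1, a difference of -1.93 (standard error 0.19) against -0.38 at control (interaction adjusted p = 0.00238). *EXPA5* (AT3G29030) had -1.18 and -0.22, and -0.97 without replicate 2 of AtHb1 hypoxia, which ended its call. Neither *EXPA15* nor *EXPA5* was called at control. Of 18 named expansin genes 5 were lower, 2 of them among the 14 named by the annotation, beside 0.95% of all probe sets. The other 3 were named by the study's tables alone. The median of the 18 was -0.67, and with no fold limit 14 were lower and 1 higher.

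*FLA13* (AT5G44130), which encodes a fasciclin-like arabinogalactan protein of the cell surface, read 10.27, 10.17 and 10.13 in WT hypoxia and 8.58, 8.17 and 8.12 in AtHb1 hypoxia. Its difference of -1.90 (standard error 0.17) was nearer to 0 than the -3.70 at control, with an interaction of 1.80 (adjusted p = 0.00042). *FLA12* (AT5G60490) had -1.33, and these were the 2 called of 7 named arabinogalactan protein genes. At control all 7 were called lower, beside 0.972% of all probe sets. The 7 carry names from the study's tables of called genes alone, so this count is not independent evidence. The mannan synthase genes *CSLA01* (AT4G16590) and *ATCSLA09* (AT5G03760) had -1.85 and -1.53. The other 2 of the 4 named synthase genes of wall polysaccharides, *CSLC04* at 0.04 and *IRX3* at -0.27, were not called. *GER1* (AT1G72610), a germin-like protein gene, differed by -2.48 (standard error 0.14) and -2.19, *GASA6* (AT1G74670), a gibberellin-regulated peptide gene, by -1.94 (standard error 0.09) and -2.05, and AT1G04040, of the acid phosphatase family, by -2.68 (standard error 0.16) and -2.89.

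In the cuticle, *CYP96A15* (AT1G57750), the alkane hydroxylase gene of wax synthesis, read 9.21, 9.10 and 9.09 in WT hypoxia and 6.87, 6.62 and 6.16 in AtHb1 hypoxia, a difference of -2.59 (standard error 0.35, adjusted p = 6.13e-05) and -3.17 at control. *CER4* (AT4G33790), which makes primary alcohols of wax, had -1.36 and *WSD1* (AT5G37300), a wax ester synthase gene, -1.18. Of 6 named genes of wax and cutin, 4 were lower, 1 of them among the 2 named by the annotation, beside 0.95% of all probe sets. With no fold limit all 6 were lower, beside 18.3%. Auxin genes held 5 lower and 1 higher of 16 named. AT2G21220, a small auxin-up RNA gene, read 10.62, 10.58 and 10.58 in WT hypoxia and 8.04, 8.30 and 8.08 in AtHb1 hypoxia, with -2.45 (standard error 0.16) and -3.42 at control (interaction adjusted p = 0.0118). The auxin repressor gene *IAA7* had -1.62, the efflux carrier gene *PIN3* -1.29 and the response factor gene *ARF12* -1.07, whose call was lost without replicate 1 of WT hypoxia or replicate 3 of AtHb1 hypoxia, at -0.95 and -0.92. The higher one, AT4G31320, of the same small auxin-up RNA family, had 1.13 and 0.13 at control. The annotation names 1 of the 16 genes, *IAA29*, at -0.01.

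Aquaporins move water across membranes. *TIP2* (AT3G26520), of the vacuole membrane, read 9.95, 10.02 and 9.85 in WT hypoxia and 8.47, 7.96 and 8.24 in AtHb1 hypoxia, a difference of -1.72 (standard error 0.11) and -1.04 at control. *DELTA-TIP* (AT3G16240) had -1.58 at each oxygen level, and the plasma membrane genes *PIP2E* (AT2G39010) -1.46, *PIP1A* (AT3G61430) -1.10 and *RD28* (AT2G37180), whose probe set may bind relatives, -1.07. With the 2 seed forms above, 7 of 8 named aquaporin genes were lower, beside 0.95% of all probe sets. All were named by the study's tables, so this count is not independent evidence. Both named flavonoid genes were lower. *BAN* (AT1G61720), the anthocyanidin reductase gene of seed coat tannin, had -1.07 (standard error 0.09), and *DFR* (AT5G42800), the dihydroflavonol reductase gene, -1.04 (standard error 0.09) and -0.97 without replicate 2 of AtHb1 hypoxia, which ended its call.

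**Figure D4:**
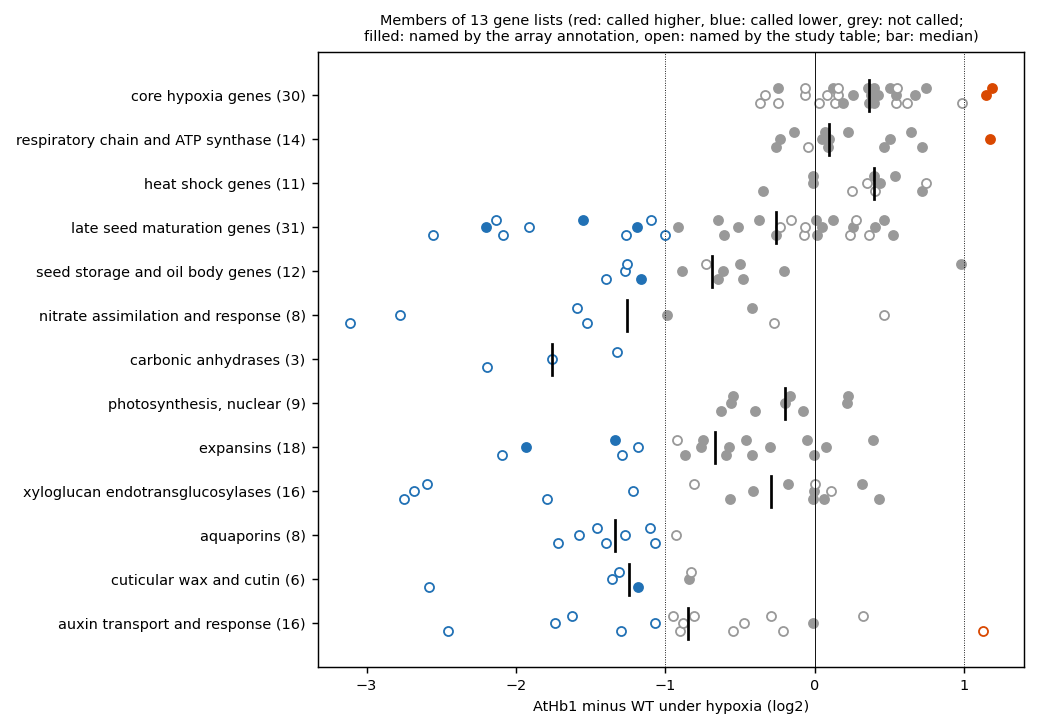
Log2 difference of AtHb1 minus WT under hypoxia for each named gene of 13 lists, with the number of genes in brackets, filled points for genes named by the array annotation, open points for genes named by the study's tables, red or blue for calls and a bar at the median. Most open points of the nitrate, carbonic anhydrase, aquaporin and wax genes lie to the left, where the calls that gave these genes their names place them, and the filled points of the core hypoxia genes lie around their median of 0.40.

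Among chloroplast-encoded genes, a group chosen after values were seen and named by the annotation throughout, 13 of 69 were called lower and 2 higher, beside 0.95% and 0.791% of all probe sets. At control 8 of the 69 were called lower and 3 higher, beside 0.972% and 1.2%. The measures of RNA integrity parted the same arrays, and their part in these values was not tested. *psaJ*, a small subunit gene of photosystem I, read 12.72, 12.71 and 12.88 in WT hypoxia and 10.77, 11.03 and 10.83 in AtHb1 hypoxia, a difference of -1.89 (standard error 0.33, adjusted p = 0.000435). *psbE*, which encodes a cytochrome b559 subunit of photosystem II, read 10.82, 10.94 and 10.78 against 9.46, 8.93 and 8.93, with -1.74 (standard error 0.17). No array of the groups overlapped in either gene. The photosystem II genes *psbH*, *psbF*, *psbK* and *psbL* had -1.69, -1.61, -1.53 and -1.14. The photosystem II genes as a class held 5 lower of 15, with a median of -0.72 and of -0.66 at control.

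Of the 42 genes of photosystems, cytochrome b6f, NDH complex and ATP synthase, 11 were lower and 0 higher, with a median of -0.41. The 19 genes of ribosomal proteins and RNA polymerase held 1 lower and 2 higher, with a median of -0.01. The higher ones were *rps15*, of the small ribosomal subunit, at 1.46 (standard error 0.11) and 0.89 at control, and *rpoC2*, of the plastid RNA polymerase, at 1.42 and 1.25. *cemA*, of the envelope membrane, had -1.70, *ndhA* -1.40, *petL* -1.28, *atpH* -1.17, *ndhK* -1.13, *rpl22* -1.08 and *psaA* -1.02. Calls of *atpH*, *ndhK*, *rpl22* and *psaA* were lost without single hypoxia arrays, and the number of lower genes then lay between 11 and 13. Several of these plastid genes share transcripts, among them *psbE*, *psbF* and *psbL*, so they are not independent of each other.

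**Figure D5:**
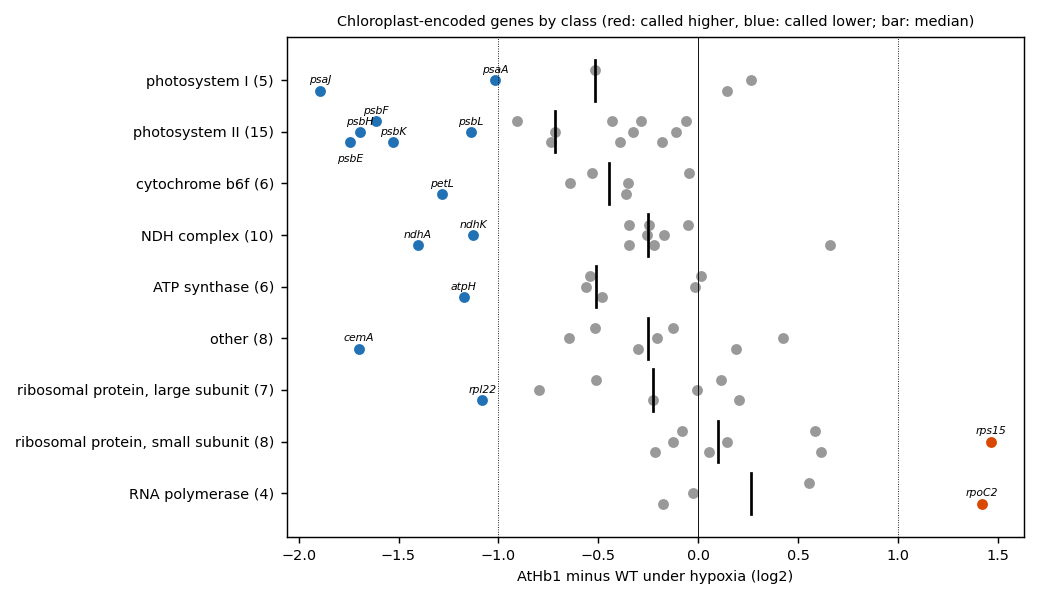
Log2 difference of AtHb1 minus WT under hypoxia for 69 chloroplast-encoded genes by class, with red and blue for calls, grey for genes not called and a bar at each class median. The lower calls fall mainly in the photosystem, NDH and ATP synthase classes, and the 2 higher calls, at 1.46 and 1.42, in the ribosomal and polymerase classes.

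Nuclear photosynthesis genes moved little. None of 9 named genes was called, with a median of -0.20, and with no fold limit 4 were lower and 1 higher. *PSBY* (AT1G67740), of photosystem II, had -0.62 (adjusted p = 0.000119) and *PRK* (AT1G32060), the phosphoribulokinase gene of the Calvin cycle, -0.56. The mean of the 9 was 12.26, 12.30 and 12.29 in WT hypoxia and 12.06, 11.99 and 12.08 in AtHb1 hypoxia. Of 4 photorespiration genes all were lower with no fold limit. *GOX2* (AT3G14415), a glycolate oxidase gene whose probe set may bind relatives, had -1.02, and -0.95 without replicate 2 of AtHb1 hypoxia, and AT1G11860, of the glycine decarboxylase T protein, -0.75.

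On the other side, the largest difference was that of *EDA25* (AT1G72440), which encodes a nucleolar protein of ribosome assembly needed in the female gametophyte. It read 7.02, 6.9999 and 7.38 in WT hypoxia and 8.80, 9.29 and 9.34 in AtHb1 hypoxia, a difference of 2.01 (standard error 0.16, adjusted p = 1.17e-06), or 4.02-fold, against 0.87 at control (interaction adjusted p = 0.00469). *SOT7* (AT1G28170), a sulfotransferase gene, read 6.72, 7.10 and 6.69 against 8.61, 8.96 and 8.93, a difference of 1.99 (standard error 0.16) and 0.52 at control. AT4G23680, of the major latex protein family, read 8.05, 8.06 and 8.24 against 9.49, 9.998 and 10.04, with 1.72 (standard error 0.17) and 0.51. In all 3 genes every AtHb1 array was more than 1 log2 unit above every WT array.

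*ZIP7* (AT2G04032), a zinc transporter gene, read 6.98, 6.37 and 6.59 in WT hypoxia and 8.14, 8.28 and 8.23 in AtHb1 hypoxia, with 1.57 (standard error 0.12) and 0.17 at control. The lipid transfer family gene AT4G08530 read 6.62, 6.64 and 6.56 against 8.22, 8.01 and 8.27, with 1.55 (standard error 0.14) and 0.15. For both the interaction passed, at 1.40 (adjusted p = 0.000328) and 1.41 (adjusted p = 0.000607), and hypoxia minus control was -1.12 and -0.76 in WT beside 0.28 and 0.65 in AtHb1. AT3G52550, whose role is not given here, was the most precise of this kind, at 7.81, 7.81 and 7.91 in WT hypoxia and 9.13, 9.15 and 9.10 in AtHb1 hypoxia. Its difference was 1.28 (standard error 0.06, adjusted p = 4.35e-08), and -0.19 at control (interaction adjusted p = 3.14e-06). AT5G52500 had 1.20 and -0.19, and *DSEL* (AT4G18550), a lipase gene of seedling establishment, 1.19 and -0.38.

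AT2G40650, of the PRP38 splicing factor family, read 7.06, 7.17 and 7.32 in WT hypoxia and 8.58, 8.71 and 8.87 in AtHb1 hypoxia, a difference of 1.54 (standard error 0.09, adjusted p = 1.29e-07) and 1.06 at control. *PRP40A* (AT1G44910), of the same process, had 1.52 (standard error 0.18) and 1.21. *SDE3* (AT1G05460) and *RDR1* (AT1G14790), an RNA helicase and an RNA-dependent RNA polymerase of gene silencing, had 1.62 and 1.08, the latter 0.99 when the arrays were quantile normalized again, which ended its call. *CYCB1;5* (AT1G34460), a cyclin gene read by a probe set that may bind relatives, had 1.53 (standard error 0.12) and 0.48. *NSP3* (AT3G16390), a nitrile-specifier gene of the same kind of probe set, was higher by 1.502 under hypoxia and 1.4999 at control, while *NSP2* was lower under hypoxia. *DIP2* (AT5G03210) had 1.45 and 1.80 and AT5G60030 1.45 and 0.76.

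The core hypoxia genes, which plants raise in most cell types when oxygen falls, were a little higher in AtHb1 than in WT under hypoxia. Of the 16 named by the annotation 2 were called higher and 0 lower, beside 0.791% and 0.95% of all probe sets. The median of the 16 was 0.40 (0.51 at control) against -0.00 for all probe sets. Once the fold limit was dropped, 11 of them passed as higher and 0 as lower, against shares of 22.3% and 18.3%. Their mean was 10.11, 10.07 and 10.11 in WT hypoxia and 10.62, 10.48 and 10.59 in AtHb1 hypoxia. The groups did not overlap in this mean, though 50.9% of all probe sets taken singly had no overlap. The called genes were AT5G10040, of unknown function, at 1.19 (standard error 0.09) with 9.73, 9.73 and 9.81 against 10.76, 11.11 and 10.96, and AT5G26200, a mitochondrial carrier family gene, at 1.15 (standard error 0.12) with 7.87, 7.79 and 8.01 against 8.95, 8.88 and 9.28. AT5G26200 differed by 0.07 at control, and its hypoxia minus control was 2.87 in WT and 3.94 in AtHb1.

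Among the 14 core genes that the study's tables name, 0 were called, while 4 higher and 2 lower ones passed with no fold limit. The median of the 14 was 0.11, with values from -0.37 to 0.99. The ethylene receptor gene *ETR2* (AT3G23150) had 0.99, just under the fold limit, the ethylene response factor gene *ERF71* (AT2G47520) 0.62 and the pyruvate decarboxylase gene AT4G33070 of fermentation 0.55. *PDC2* (AT5G54960), another pyruvate decarboxylase gene, had 0.50, and *ADH1* (AT1G77120), the alcohol dehydrogenase gene, 0.08 (adjusted p = 0.522). AT5G15120, which encodes an oxygen-sensing cysteine oxidase, was lower with no fold limit at -0.33 under hypoxia and called higher at control, at 1.04 (interaction adjusted p = 0.000112). AT4G10270, a wound-responsive family gene, had -0.25 and 1.31 (interaction adjusted p = 0.000337).

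Respiratory genes showed small differences. Of 13 named by the annotation 1 was called higher, with a median of 0.10, and this 1, *ATPC2* (AT1G15700), encodes a gamma subunit of the chloroplast ATP synthase and not a respiratory protein. It read 7.24, 7.27 and 7.36 in WT hypoxia and 8.32, 8.56 and 8.52 in AtHb1 hypoxia, a difference of 1.18 (standard error 0.08, adjusted p = 5.11e-07). With no fold limit 6 of the 13 were higher and 2 lower, beside 22.3% and 18.3% of all probe sets. The mean of the 13, *ATPC2* among them, was 10.34, 10.34 and 10.35 in WT hypoxia. In AtHb1 hypoxia it was 10.59, 10.64 and 10.59, with no overlap, beside 50.9% of all probe sets taken singly. The complex I genes AT5G18800 and AT5G47890 had 0.72 and 0.64. The study picked both of them and *ATPC2* on these same arrays as higher in AtHb1 under hypoxia. The count and the mean of the 13 are therefore not independent evidence. Of 11 heat shock genes 0 were called, though 7 higher and 1 lower passed with no fold limit, with *HSP70* (AT3G12580) at 0.74 and the small heat shock gene AT2G29500 at 0.72. Of 8 abscisic acid genes 0 were called, with *LTI65* (AT5G52300) at 0.75 and *LTI78* (AT5G52310) at 0.57 past the test with no fold limit, and *NCED3* (AT3G14440), of abscisic acid synthesis, the other way at -0.46. *LTI65* was past the fold limit, at 1.02, without replicate 1 of AtHb1 hypoxia.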

How the data were processed

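RNA from whole siliques was measured on 12 Affymetrix ATH1 arrays, 3 in each of 4 groups, with groups and numbers of replicates as the labels give them. The deposited values are log2 signals that the authors made from MAS5-processed scans by RMA. That method corrects background, makes the distributions of probe signals equal across arrays and combines the probes of each set. The array medians of the combined values still differed, at 7.49 to 7.58 in WT hypoxia and 7.60 to 7.61 in AtHb1 hypoxia. The study's methods give the scan software as MAS 5.0, and the version of RMA is not given in the sources used here. Present and absent calls and the authors' own fold-change columns, which hold their comparisons, were not used.

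Of 22746 probe sets, 13436 were named by the array annotation, 503 match several genes, 493 were named by the study's tables alone and 8314 stayed unnamed. Where both sources named a probe set, 485 had the same locus and 7 another. One limma 3.58.1 model (R 4.3.3) of the 4 group means gave both genotype differences and their interaction, with Benjamini-Hochberg adjustment over all probe sets. The code was tested on simulated data. Tables were made with Python 3.11.15 and pandas 2.3.3. A gene with several probe sets is given by the one with the highest mean signal. The genes named are *AtHb1*, the 15 highest and 15 lowest called genes whose arrays do not overlap, the 8 most positive and 8 most negative interactions, and up to 5 called members per list and direction, or 2 members where none was called. Any other gene was picked with its values in view. The comparison, its lists and tests were chosen with earlier results of these data known. Per the study's methods each replicate is a pool of siliques from a repeated treatment run. The number of arrays limits the precision.

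Alternatives were the hypoxia arrays alone, a trended robust prior, array weights, unadjusted p, other fold limits, dim or shared probe sets left out, quantile normalization again, centring, a replicate block and each array left out in turn. Counts per list without single arrays and under other scalings were added after seeing the data.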

Additional observations from a re-analysis of the deposited data

Results flagged for a closer look

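The results here are named genes whose genotype difference differed between hypoxia and control by the interaction test of limma. Each value is the log2 difference of AtHb1 minus WT under hypoxia minus the same difference at control. *AtHb1* itself had -3.87, with 1.62 under hypoxia and 5.49 at control.

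Genes called lower under hypoxia that had a positive value at control held the most negative interactions. AT1G54870 had -6.02, *XTH25* -5.19, AT1G14940 -4.94, *BGLU19* -4.85, *NSP2* -4.71 and *GASA2* -4.58. *EM1* had -4.39, AT3G15670 -4.32, *GASA3* -4.11, AT3G58550 -3.75, AT2G18370 -3.61 and AT2G25890 -2.39. In the seed vacuole and oil body genes *BETA-TIP* had -2.10, *TIP3;1* -1.98 and *ATPXG2* -1.77. *ATPXG2* had 0.51 at control.

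Genes whose decrease was larger under hypoxia included *ECS1* at -2.07, *NIR1* at -1.90, *NIA2* at -1.69, *EXPA15* at -1.55, *LBD37* at -1.48 and *UPM1* at -1.11. *BCA3* had -1.23, *CA2* -1.16 and *CA1* -0.79. *WRKY18* had -1.06, *EXPA5* -0.97, *TIP2* -0.67, *ARF12* -0.65 and AT2G41090 -0.63. *RVE2* had -1.25 with 0.09 at control, and *PRK*, which was not called, had -0.55.

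Positive interactions belonged first to genes called higher under hypoxia. *DSEL* had 1.57, AT3G52550 1.47, *SOT7* 1.47, AT4G08530 1.41, *ZIP7* 1.40, AT5G52500 1.39 and *APK4* 1.37. AT4G23680 had 1.21, *EDA25* 1.13, AT5G26200 1.08, *CYCB1;5* 1.05, AT4G31320 1.0003, AT5G10040 0.99, *LEC2* 0.89, *rps15* 0.57 and AT2G40650 0.48. The others were genes lower at both oxygen levels and nearer to 0 under hypoxia, where *FLA13* had 1.80, AT1G02200 0.998, AT2G21220 0.96, AT2G45180 0.94, *CER4* 0.67, *XTH24* 0.597 and *PIP2E* 0.57. The pollen genes *AGP6* and *AGP11* had 1.11 and 1.04 and were not called under hypoxia, at -0.14 and -0.28.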

How the results depend on the processing

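The counts of 180 higher and 216 lower probe sets became 5075 and 4159 with no fold limit and 1314 and 877 at a 1.5-fold limit, and the 221 called probe sets that passed the interaction became 1821 and 822. Leaving out each of the 12 arrays in turn gave 149 to 250 higher, 184 to 249 lower, 162 to 312 past the interaction, and 1.42 to 1.79 for *AtHb1*. Under the other settings the counts stayed within 1.5 times, from 131 to 223 higher and 203 to 253 lower. Quantile normalization again gave 138 higher and 227 lower, and centring on the array median gave 131 and 253. Of the 84 called genes that the naming rule picked, 72 kept the call without replicate 2 of AtHb1 hypoxia, 77 with a trended robust prior and 80 or more under each other setting. The robust prior ended the calls of AT1G54870, *XTH25*, *NSP2*, AT3G15670, *GASA3*, *EM1* and *GASA2*, and array weights those of *EM1* at -1.76 and *GASA2* at -1.63. Array weights were lowest for replicate 1 of AtHb1 hypoxia, at 0.456, then replicate 2 of WT control, at 0.644, and replicate 2 of AtHb1 hypoxia, at 0.659. *AGP6*, not called at -0.14, turned to 0.033 without replicate 1 of AtHb1 hypoxia and had -0.37 without replicate 2. The cause of these changes was not tested. Replicate numbers did not pair the arrays, since deviations of same-numbered arrays correlated between -0.13 and 0.12, and the fit with the replicate block gave 180 higher, 216 lower, 221 past the interaction and 1.62 for *AtHb1*, and changed no call of these genes.

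Without replicate 2 of AtHb1 hypoxia, late seed maturation genes called lower went from 10 to 2, flavonoid genes from 2 to 1, photorespiration genes from 1 to 0 and WRKY and salicylate genes from 1 to 2. RNA silencing genes called higher went from 2 to 1 under quantile normalization. The interaction of *CA1* was lost without any 1 of 7 arrays, that of *ARF12* and of AT2G40650 without any 1 of 5, that of *rps15* without any 1 of 4 and that of *AGP6* without any 1 of 2.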

Other observations

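Genes of cell division and of ribosome assembly, chosen after their values were seen, stood among the higher probe sets under hypoxia. *TES* (AT3G43210), a kinesin gene of cytokinesis, read 7.001, 7.11 and 7.16 in WT hypoxia and 8.38, 8.42 and 8.53 in AtHb1 hypoxia, a log2 difference of 1.35 (standard error 0.08) and of 0.77 at control. The kinesin gene AT3G44050 differed by 1.44, the kinesin genes AT4G14330 by 1.13 and AT5G60930 by 1.11, *HIK* (AT1G18370) by 1.04, the topoisomerase gene *TOPII* by 1.20 and the microtubule plus-end gene *EB1B* by 1.18. The Aurora kinase genes *AUR1* and *AUR2*, of the same phase of division, had 0.10 and 0.65 and were not called. *NAP57*, a pseudouridine synthase gene of the nucleolus, read 9.27, 9.19 and 9.46 against 10.05, 10.60 and 10.71, a difference of 1.14. The calls of *HIK* and AT4G14330 were lost without single arrays. No list of such genes was tested, and the group was put together from its values.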
